A study of Mus musculus with 52 samples.

Results

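The transcription machinery genes described here encode the subunits of RNA polymerases I, II and III, the general transcription factors TFIIA, TFIIB, TFIIE, TFIIF and TFIIH, the TBP-associated factors (TAFs) and the Mediator complex. They were taken by name: every gene of the deposited tables whose symbol began with Polr1, Polr2 or Polr3, Gtf2a, Gtf2b, Gtf2e, Gtf2f or Gtf2h, Med or Taf and had the form of a subunit name. The rule found 94 of 23043 genes, each represented by its longest transcript of at least 250 bp. No measured value entered the choice. The 94 genes fell into 3 subunits of RNA polymerase I, 2 shared by polymerases I and III, 13 of RNA polymerase II (RNAPII, some of them shared by all 3 enzymes), 10 of polymerase III, 13 general transcription factors, 19 TAFs of TFIID and related complexes, 4 TAFs of SL1, and 30 Mediator genes, of which 9 belong to the head, 9 to the middle, 7 to the tail and 4 to the kinase module and 1 is the scaffold.

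The cells were mouse embryonic fibroblasts (MEFs) immortalized by the 3T3 method in which both alleles of MLL2 (Kmt2d), an H3K4 methyltransferase, carried loxP sites around exons 3 to 5. F/F cells were untreated. FC/FC cells were the same line after 24 h in hydroxytamoxifen, which activates the Cre recombinase and deletes those exons, and were then grown on for 6 days, so that the drug, the recombinase and the deletion cannot be told apart. Chromatin immunoprecipitation and sequencing (ChIP-seq) of H3K4me1, H3K4me2 and H3K4me3 gave 3 libraries per mark and genotype, 18 in all. The question for the comparison was whether H3K4 methylation over genes differed once MLL2 was disabled.

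As background, RNAPII cannot find a promoter alone. TFIID, made of TBP and the TAFs, recognises core promoter DNA. TFIIA and TFIIB join it, TFIIF brings the polymerase, TFIIE and TFIIH open the DNA, and Mediator relays signals from enhancer-bound activators to this assembly. H3K4me3 marks the nucleosomes around active start sites, and the TFIID subunit TAF3 binds it through its PHD finger. H3K4me1 and H3K4me2 extend over the flanks of promoters and over enhancers, where MLL2 is one of the main enzymes. Many of these genes are broadly used across cell types, and their germ-line or tissue-restricted relatives are exceptions.

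Depth ran from 26714377 to 49990775 reads counted over transcripts per library. In H3K4me1 the 3 FC/FC libraries were all deeper (31253262 to 38871331 reads) than the 3 F/F libraries (26714377 to 30528079). The values are RPKM, the reads over a transcript extended by 500 bp at each end, divided by its length and by the reads counted in the library. H3K4me2 FC/FC replicate 1 carries in its label the antibody catalogue number of the H3K4me1 libraries. Its values had Spearman correlations of 0.990 to 0.992 across genes with the other 5 H3K4me2 libraries and of at most 0.950 with any library of another mark, so it is treated as H3K4me2, and results that rest on it are given with and without it. RPKM over all of Kmt2d does not check a deletion of 3 exons: the H3K4me2 level over the gene was 2.46 to 2.55 RPKM in F/F and 2.69 to 2.89 RPKM in FC/FC, and the H3K4me1 and H3K4me3 levels of the groups overlapped. The fibroblast identity was visible in H3K4me3, with a peak over the start of 8 of 10 fibroblast marker genes in all 6 libraries (not Thy1 and Fap). Their summed level was 70.3 to 72.6 RPKM in F/F and 71.4 to 73.2 RPKM in FC/FC. Such a peak was found at 1 of 7 epithelial, 0 of 5 haematopoietic, 1 of 5 endothelial, 2 of 5 neural and 0 of 4 myogenic marker genes. The summed H3K4me3 of those lists was, in F/F and FC/FC libraries, 1.61 to 1.81 and 1.49 to 1.69 RPKM for the epithelial genes, 1.06 to 1.12 and 0.960 to 1.09 RPKM for the haematopoietic genes, 1.499 to 1.56 and 1.44 to 1.54 RPKM for the endothelial genes, 12.3 to 12.9 and 12.5 to 14.3 RPKM for the neural genes, and 0.698 to 0.799 and 0.717 to 0.861 RPKM for the myogenic genes.

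The promoters of 7 members are printed because they hold the contrast that runs through the values below: Polr2a and Polr2l encode RNAPII subunits and Gtf2a1 and Med12 the broadly used subunits of TFIIA and Mediator, while Gtf2a1l, Taf7l and Med12l are their relatives or those of other members with little or no H3K4me3. Each run covers 170 bases before the transcription start site (TSS) to 29 after it, on the gene's own strand, from RefSeq on build GRCm38.p6, and capitals mark matches to the motifs listed after them, on either strand.
Polr2a, chr11:69758604-69758803, minus strand: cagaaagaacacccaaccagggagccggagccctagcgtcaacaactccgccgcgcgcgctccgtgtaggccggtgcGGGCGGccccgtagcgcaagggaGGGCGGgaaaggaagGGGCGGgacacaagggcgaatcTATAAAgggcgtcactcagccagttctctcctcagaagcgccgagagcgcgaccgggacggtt
Polr2l, chr7:141475124-141475323, minus strand: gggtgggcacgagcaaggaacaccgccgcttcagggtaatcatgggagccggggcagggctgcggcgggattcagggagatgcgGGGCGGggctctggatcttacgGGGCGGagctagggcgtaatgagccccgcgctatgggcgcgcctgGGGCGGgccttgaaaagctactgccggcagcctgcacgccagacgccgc
Gtf2a1, chr12:91590458-91590657, minus strand: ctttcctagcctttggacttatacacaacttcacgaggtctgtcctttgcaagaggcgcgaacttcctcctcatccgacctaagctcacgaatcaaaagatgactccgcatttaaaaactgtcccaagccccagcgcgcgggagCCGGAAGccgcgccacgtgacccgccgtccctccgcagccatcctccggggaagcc
Gtf2a1l, chr17:88668490-88668689, plus strand: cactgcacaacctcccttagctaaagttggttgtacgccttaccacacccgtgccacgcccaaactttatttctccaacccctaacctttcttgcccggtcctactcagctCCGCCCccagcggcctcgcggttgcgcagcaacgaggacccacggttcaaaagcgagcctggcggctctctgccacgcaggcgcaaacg
Med12, chrX:101273921-101274120, plus strand: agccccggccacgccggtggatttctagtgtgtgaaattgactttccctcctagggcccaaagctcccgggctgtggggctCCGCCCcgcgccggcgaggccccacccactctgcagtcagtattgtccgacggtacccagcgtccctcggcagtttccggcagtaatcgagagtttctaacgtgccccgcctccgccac
Med12l, chr3:59006808-59007007, plus strand: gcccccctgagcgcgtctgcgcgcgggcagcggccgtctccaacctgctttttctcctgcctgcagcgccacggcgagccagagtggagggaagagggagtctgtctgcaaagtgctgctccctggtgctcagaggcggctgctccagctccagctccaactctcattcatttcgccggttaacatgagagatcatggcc
Taf7l, chrX:134476461-134476660, minus strand: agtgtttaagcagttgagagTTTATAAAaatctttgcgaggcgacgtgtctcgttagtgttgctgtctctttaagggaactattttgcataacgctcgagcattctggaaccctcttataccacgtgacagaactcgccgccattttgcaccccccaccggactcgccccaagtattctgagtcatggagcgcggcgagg
The motifs were the TATA box (TATAAA), the CCAAT box (CCAAT), the GC box (GGGCGG), an ETS site (CCGGAAG), an NRF1 site (GCATGCGC) and a YY1 site (AAGATGGCG).

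Polr2a, the catalytic subunit with the C-terminal repeat domain, had a TATA box that began 33 bases before its TSS and 3 GC boxes. The promoters of Polr2l and Gtf2a1 had no TATA box and held 3 GC boxes and 1 ETS site, respectively. The sparsely marked Gtf2a1l, Med12l and Taf7l had CpG contents like those of the marked genes: the observed over expected CpG ratio of the 300-base promoter was 0.801, 0.843 and 1.03, against 0.995 for Polr2a, 0.870 for Polr2l, 1.02 for Gtf2a1 and 0.839 for Med12. Of the 94 members, 79 were in the RefSeq promoter table, and 61 of these had the same start as the deposited transcript. Over those 61 promoters of 300 bases the median CpG ratio was 0.848, against 0.564 over 14305 promoters of all genes and 0.798 over 7119 promoters with an H3K4me3 peak over the TSS in all 6 libraries.

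The motifs were counted in the 61 promoters and in those of other genes. An ETS site stood in 20 of the 61 member promoters (32.8%), in 20.3% of the H3K4me3-marked promoters and in 11.5% of all promoters. The TATA letters stood in 10 (16.4%), against 5.97% of the marked and 13.3% of all promoters, and between 40 and 20 bases before the TSS in 2 (3.28%), Polr2a and Taf13, against 0.885% and 2.66%. The GC box stood in 39 (63.9%), against 70.0% and 45.9%, the CCAAT box in 19 (31.1%), against 40.5% and 38.9%, the NRF1 site in 6 (9.84%), against 6.12% and 3.62%, and the YY1 site in 2 (3.28%), against 3.53% and 1.92%. These are counts of letters in a window and were given no test.

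Nearly all members carried H3K4me3 and H3K4me2 over their TSS in both genotypes. An authors' peak covered the TSS in all 6 libraries for 90 of the 94 members (95.7%) in H3K4me3, against 50.1% of all genes, and again for 90 (95.7%) in H3K4me2, against 54.2% of all genes. H3K4me1 peaks rarely covered the TSS itself. They did so in all 6 libraries for only 2 members, Med24 and Taf6l (2.13%, against 7.82% of all genes), in 1 to 5 libraries for 24, and in none for 68. The contrast with all genes depended on the exact TSS. A peak within 500 bp of the TSS was found in all 6 libraries for 24 of the 94 members and 5675 of 23043 genes. Within 2 kb it was 73 members and 10742 genes.

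The members without a steady H3K4me3 peak were all relatives of a more widely used subunit. Taf7l, a TFIID subunit best known from male germ cells and fat cells, had its nearest H3K4me3 peak 63382 to 63496 bp away. Gtf2a1l, the germ-cell relative of the large TFIIA subunit, had the nearest H3K4me3 peak 37004 to 38520 bp upstream, although H3K4me2 covered its TSS in all 6 libraries in a peak of 1120 bp on average. Taf9b, a relative of Taf9, did have H3K4me3, in a peak whose edge lay 501 to 725 bp downstream of the annotated TSS, and a level of 1.27 RPKM. Med12l, a relative of the kinase module subunit Med12, had an H3K4me3 peak over its TSS in 3 of 6 libraries (F/F replicates 1 and 3 and FC/FC replicate 3), 415 to 559 bp wide. In H3K4me2, the peak at Med13l began 0 to 13 bp from the TSS and the peak at Taf4a ended 0 to 117 bp from it, so that the TSS counted as covered in 2 libraries for Med13l and in the 3 FC/FC libraries for Taf4a, where the F/F peaks ended 112 to 117 bp away.

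Longer genes had lower levels per length in all 3 marks. Across the 94 members the Spearman correlation of the mean RPKM with transcript length was -0.938 for H3K4me3, -0.923 for H3K4me2 and -0.529 for H3K4me1, and across all genes with an H3K4me3 TSS peak in every library it was -0.824, -0.854 and -0.384. These are descriptions over genes that share the same libraries. Member transcripts were 1314 to 311435 bp long, with a median of 15319 bp against 15616 bp for all genes. The mean of the 6 H3K4me3 libraries ran from 0.0832 RPKM (Taf7l) to 26.2 RPKM (Polr2i), with a median of 3.21 RPKM against 0.449 RPKM for all genes, and 91 members were above that value. For H3K4me2 the members ran from 0.162 to 14.4 RPKM with a median of 2.48 RPKM against 0.704 RPKM, with 82 above it, and for H3K4me1 from 0.227 to 3.55 RPKM with a median of 1.04 RPKM against 0.739 RPKM, with 71 above it.

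**Figure D1:**
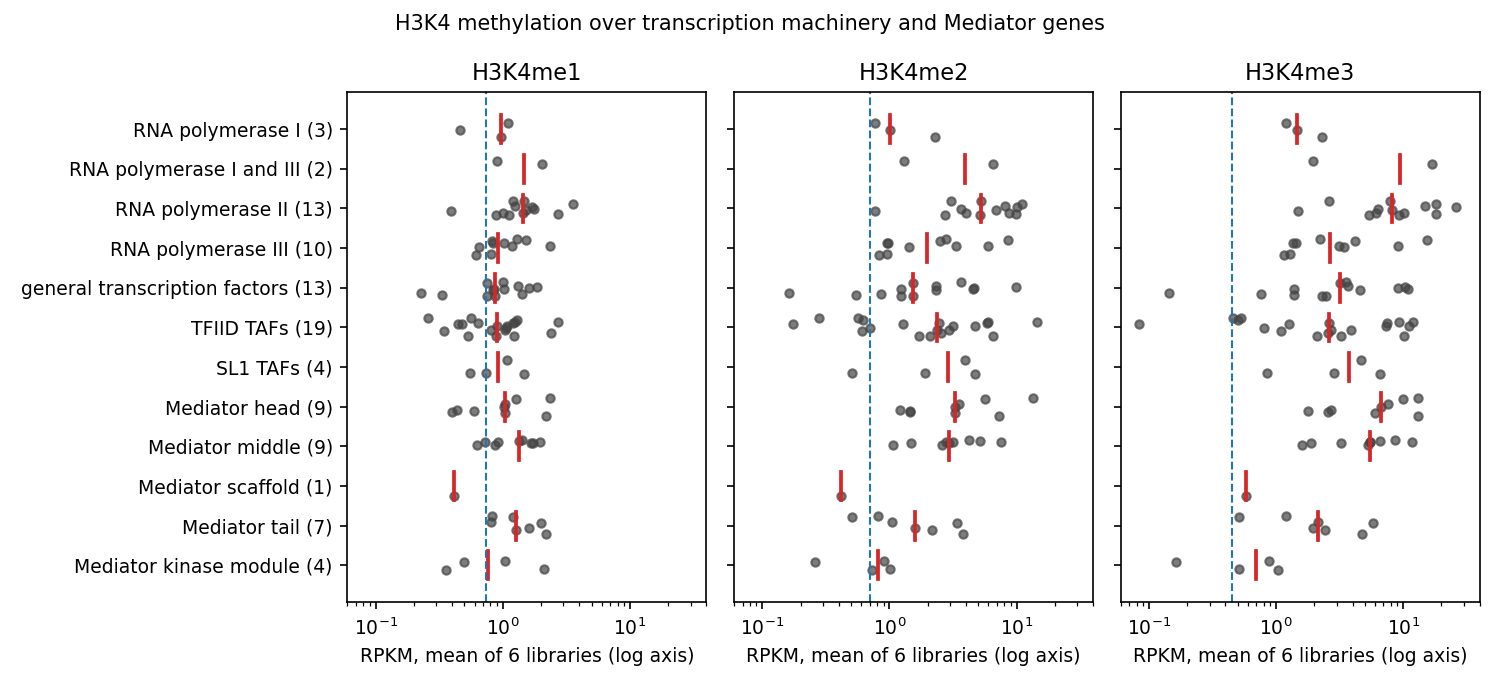
Mean RPKM of the 6 libraries of each mark (log axis) for each of the 94 members, by family, with the number of members in brackets. Red bars are family medians and the dashed line is the median of all genes. In H3K4me3 RNA polymerase II subunits had a median of 8.10 RPKM and the Mediator kinase module one of 0.692 RPKM.

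RNAPII subunits had a median H3K4me3 level of 8.10 RPKM and a median length of 6257 bp. The Mediator kinase module had the lowest median level of any family with more than 1 member, 0.692 RPKM, over a median length of 148265 bp. The highest H3K4me3 level was that of Polr2i, a small RNAPII subunit with a role in transcript cleavage and fidelity, whose transcript of 1314 bp shares its promoter with Tbcb (TSS 45 bp away in the opposite direction). Its H3K4me3 was 27.6, 24.9 and 27.5 RPKM in F/F and 25.4, 24.5 and 27.4 RPKM in FC/FC, and the genotypes overlapped. Head-to-head starts within 1000 bp were found at 26 members (27.7%) and at 2320 of all genes (10.1%), and RPKM and peaks at such members include the neighbour's signal. Among these pairs were Med22 with Rpl7a (165 bp), Polr1c with Yipf3 (35 bp) and Taf9 with Rad17 (282 bp).

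No member passed the test of H3K4me3 level between F/F and FC/FC cells. Of 94 members, 81 passed the filter of above 1 RPKM in at least 3 of the 6 libraries and were tested with limma on log2(RPKM + 0.1). At an adjusted p of 0.05, 0 members and 0.0% of all 9073 genes tested were higher or lower, with limma-voom too. At an unadjusted p under 0.05 there were 0 members, against 1.72% of genes higher and 2.01% lower. The members' log2 fold changes (FC/FC over F/F) ran from -0.09 to 0.13, with a median of -0.010 against 0.014 for all genes, and 36 (44.4%) were positive against 57.8%. The sign of that median was not stable: it was 0.004 without FC/FC replicate 1 and 0.002 without F/F replicate 2. The 3 FC/FC libraries lay above the 3 F/F libraries for 1 member, Polr2f, and below them for 2, Polr1a and Polr1b (1.23% and 2.47%, against 3.41% and 3.87% of all tested genes).

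Polr1a and Polr1b encode the catalytic core of RNA polymerase I, which makes ribosomal RNA. The H3K4me3 of Polr1a was 1.25, 1.25 and 1.24 RPKM in F/F and 1.19, 1.18 and 1.13 RPKM in FC/FC, a log2 fold change of -0.09 (SE 0.0503, adjusted p = 0.991). Polr1b had 1.46, 1.58 and 1.46 RPKM in F/F and 1.41, 1.44 and 1.44 RPKM in FC/FC, a log2 fold change of -0.06 (SE 0.0537, adjusted p = 0.991). With Polr1e, which had a log2 fold change of -0.05 and overlapping libraries, all 3 members found in polymerase I alone had negative H3K4me3 values. They did so under the centred and the quantile scaling too. The 2 members shared by polymerases I and III, Polr1c and Polr1d, were both positive in H3K4me3 (median 0.020). Both stayed positive after centring (median 0.006), and 0 of the 2 were positive after quantile normalization (median -0.005). Of all tested genes, 57.8% were positive without such scaling. Polymerase I subunits and factors that the name rule leaves out went both ways in H3K4me3. Znrd1 (-0.03) and Cd3eap (-0.13) were negative, and Twistnb (0.10), Ubtf (0.04) and Rrn3 (0.04) were positive. In H3K4me2 both tested genes of the 3 members were positive and overlapped, Polr1b at 0.10 and Polr1e at 0.05. Polr1a was below F/F in every FC/FC library in H3K4me1 (1.16, 1.13 and 1.09 against 1.05, 1.07 and 1.05 RPKM, adjusted p = 0.379) and in H3K4me2 (0.794, 0.818 and 0.768 against 0.724, 0.767 and 0.760 RPKM, under the filter and not tested). No polymerase I subunit passed the threshold in any mark.

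At RNAPII genes H3K4me3 differed by less than the spread of the libraries in most cases. Polr2a had 2.52, 2.85 and 2.56 RPKM in F/F and 2.58, 2.63 and 2.42 RPKM in FC/FC (log2 fold change -0.05, SE 0.0649). Polr2f, which encodes a subunit shared by all nuclear polymerases, had 5.93, 5.95 and 6.18 RPKM against 6.24, 6.24 and 6.30 RPKM, without overlap (log2 fold change 0.06, adjusted p = 0.991). Polr2l and Taf10, the 2 members among the 415 genes that the authors' table flags for a high FC/FC to F/F ratio of the DNA damage mark γH2AX among active genes, also overlapped. Polr2l, another shared subunit, had 18.9, 17.1 and 18.3 RPKM in F/F and 18.2, 18.1 and 18.5 RPKM in FC/FC. Taf10, a histone-fold subunit of both TFIID and SAGA, had 12.1, 11.6 and 10.6 RPKM against 12.7, 11.5 and 13.4 RPKM, and its log2 fold change of 0.13 (SE 0.0774, adjusted p = 0.991) was the highest of the members in H3K4me3.

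H3K4me2 was higher in FC/FC cells at most members, by small amounts. Of the 72 members tested, 68 (94.4%) had a positive log2 fold change, against 74.98% of the 9986 genes tested and 78.7% of the 8741 tested genes with an H3K4me3 TSS peak in all 6 libraries. The median over members was 0.119, against 0.075 over all tested genes and 0.081 over those with the peak. None of the 72 passed an adjusted p of 0.05, where 0.591% of all genes were called higher (59) and 1.55% lower (155). At an unadjusted p under 0.05, 31 members (43.1%) were higher and 0 lower, against 21.4% and 7.62% of all genes. Every FC/FC value exceeded every F/F value for 33 members (45.8%) and was below them for 1, Med13l (1.39%), against 27.2% and 8.43%.

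The calls turned on 1 library. Without H3K4me2 FC/FC replicate 1, the library with the divergent antibody label, 25 members (34.7%) passed as higher and 0 as lower, where 21.1% of all genes passed as higher and 8.48% as lower. Without any of the other 5 H3K4me2 libraries no member passed. The 25 members had log2 fold changes of 0.13 to 0.33 and adjusted p of 0.0076 to 0.0483 in that fit. They were Polr1d, Polr2a, Polr2e, Polr2k, Polr2m and Polr3c among the polymerases, Gtf2a1, Gtf2a2, Gtf2b, Gtf2e2, Gtf2h3 and Gtf2h5 among the general factors, Taf1d, Taf5, Taf6, Taf7, Taf11 and Taf12 among the TAFs, and Med4, Med6, Med7, Med19, Med21, Med23 and Med30 in Mediator. Scaling also moved the balance: after centring each library on its median, 61 of the 72 members were positive (median 0.064, against 0.019 over all genes), after quantile normalization 59 (median 0.068), and the genes called over the whole table were then 28 higher and 406 lower, or 28 higher and 319 lower.

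**Figure D2:**
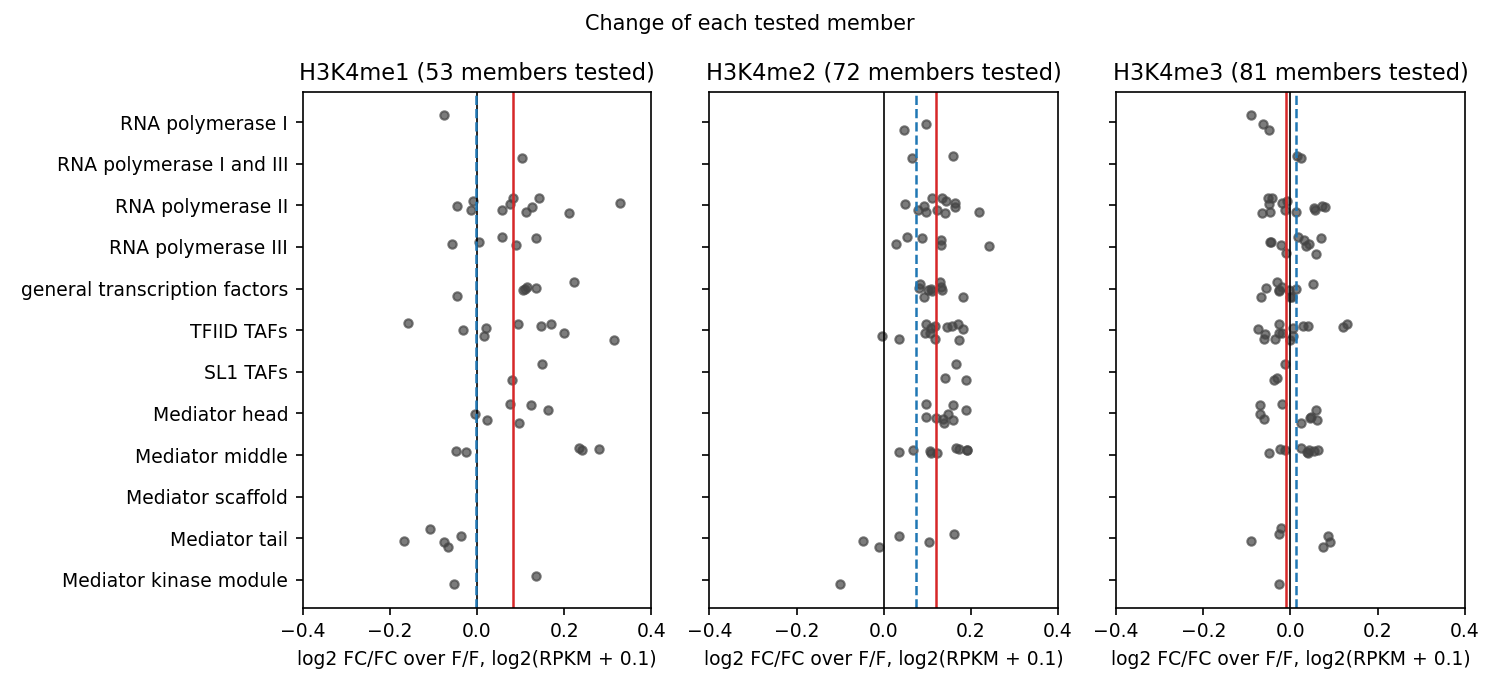
Log2 fold change of FC/FC over F/F, on log2(RPKM + 0.1), for each tested member, by family and mark. The red line is the median of the members and the dashed line that of all tested genes. In H3K4me2 the points lie mostly right of 0, with medians of 0.119 for members and 0.075 for all genes.

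The largest H3K4me2 difference among members was at Polr3c, a subunit of the polymerase III subcomplex that acts in initiation. Its H3K4me2 was 1.28, 1.38 and 1.24 RPKM in F/F and 1.56, 1.51 and 1.58 RPKM in FC/FC, with no overlap, a log2 fold change of 0.24 (SE 0.0514, limma adjusted p = 0.064). Its H3K4me3 overlapped, at 3.26, 3.37 and 3.502 RPKM against 3.54, 3.37 and 3.49 RPKM. In Mediator, Med4 of the middle module had 2.79, 3.04 and 2.99 RPKM of H3K4me2 in F/F and 3.24, 3.45 and 3.40 RPKM in FC/FC (0.19, SE 0.0502, adjusted p = 0.0839). Its partner in the middle module, Med21, had 4.68, 4.86 and 4.88 against 5.21, 5.56 and 5.54 RPKM (0.17, adjusted p = 0.0839). In the head, Med22 had 7.07, 6.76 and 6.83 against 7.73, 7.61 and 7.42 RPKM (0.14, SE 0.0419, adjusted p = 0.102). None of these passed the threshold, although their libraries did not overlap.

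Among the TAFs, Taf6, a histone-fold subunit, had 2.97, 2.93 and 3.01 RPKM of H3K4me2 in F/F and 3.31, 3.30 and 3.55 RPKM in FC/FC (0.18, SE 0.0458, adjusted p = 0.0805). Taf1a, a subunit of the polymerase I factor SL1, had 1.78, 1.77 and 1.85 against 2.05, 1.98 and 1.96 RPKM (0.14, adjusted p = 0.0998). Taf10 held the highest H3K4me2 level of the members, 14.1, 13.8 and 13.9 RPKM in F/F and 15.8, 14.5 and 14.5 RPKM in FC/FC (0.10, SE 0.0479, adjusted p = 0.216). Of the general factors, Gtf2a1 had 1.44, 1.48 and 1.402 against 1.55, 1.66 and 1.75 RPKM (0.18, adjusted p = 0.0985). TFIIB, encoded by Gtf2b, overlapped between genotypes at 2.12, 2.37 and 2.12 against 2.14, 2.47 and 2.67 RPKM. The RNAPII subunits Polr2e and Polr2k, shared by all polymerases, did not overlap: Polr2e had 10.3, 10.2 and 10.8 against 11.4, 11.7 and 11.4 RPKM (0.14, adjusted p = 0.0998), and Polr2k had 7.71, 7.77 and 7.62 against 8.02, 9.19 and 8.75 RPKM (0.16, adjusted p = 0.125). Polr2a overlapped, with 2.82, 3.09 and 2.91 against 2.86, 3.32 and 3.39 RPKM (0.11, adjusted p = 0.323).

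**Figure D3:**
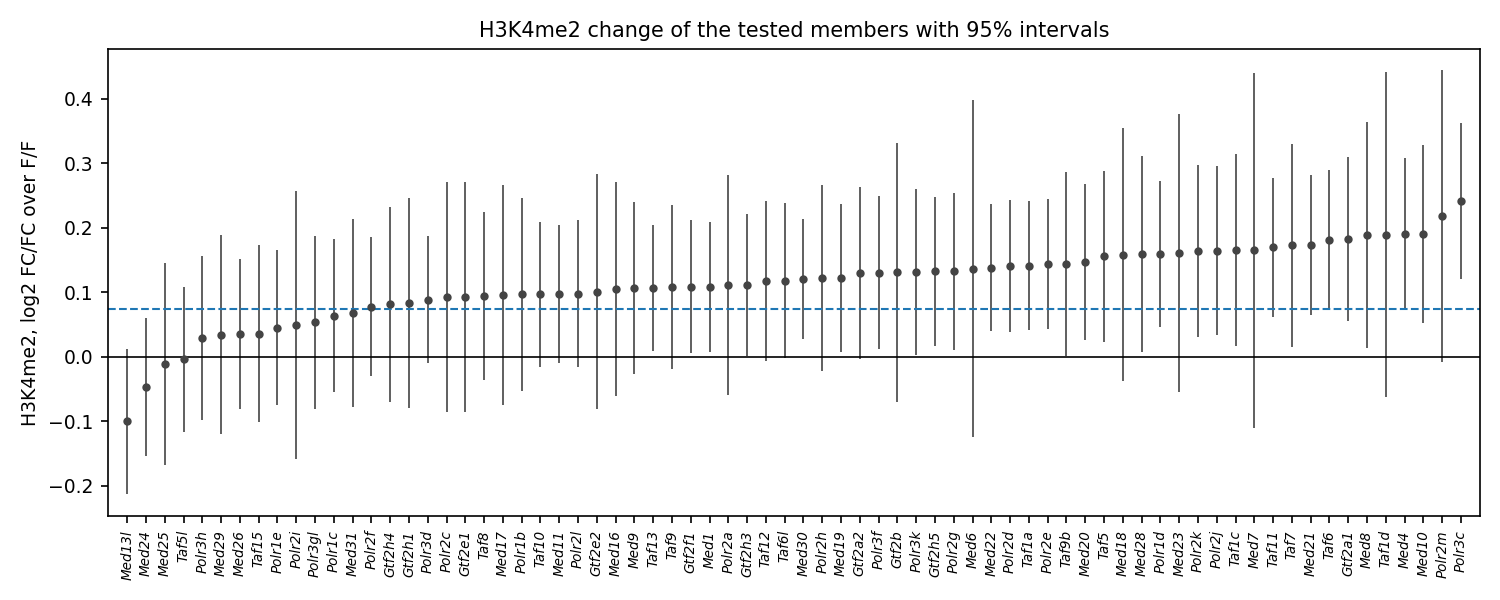
H3K4me2 log2 fold change of FC/FC over F/F with 95% limma intervals for the 72 tested members, in order of the estimate. The black line is 0 and the dashed line the median of all tested genes. The estimates run from -0.10 (Med13l) to 0.24 (Polr3c), and 4 are negative.

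The 4 tested members with negative H3K4me2 values were Med13l, Med24, Med25 and Taf5l. Med13l, a relative of the kinase module subunit Med13, was the only tested member whose FC/FC libraries all lay below F/F, with 1.04, 1.09 and 1.04 RPKM in F/F and 0.939, 1.01 and 0.985 RPKM in FC/FC (-0.10, SE 0.0481, adjusted p = 0.207). Med27, a tail subunit under the filter and not tested, had 0.552, 0.526 and 0.556 RPKM against 0.476, 0.451 and 0.483 RPKM. Both genes are long, 204719 and 177981 bp, so that their RPKM covers much transcribed sequence away from the promoter.

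H3K4me1 gave no calls among 53 tested members, and 0.0% of the 8567 genes tested were called higher and 0.0% lower. With limma-voom 1 member, Med21, passed as higher (1.89%) and 0 as lower, where 1.39% of all genes were called higher and 6.88% lower. At an unadjusted p under 0.05, 11 members (20.8%) were higher and 2 (3.77%) lower, against 10% and 15.0% of all genes. The median log2 fold change was 0.083 over members and -0.003 over all tested genes, and 36 members (67.9%) were positive, against 49.0%. Over the 6516 tested genes with an H3K4me3 TSS peak in all 6 libraries, 56.9% were positive, with a median of 0.021. FC/FC lay above F/F without overlap for 13 members (24.5%) and below it for 4 (7.55%), against 11.8% and 18.7% of all genes. With no filter, FC/FC lay above F/F for 34 of the 94 members (36.2%) and below it for 4 (4.26%), against 22.0% and 9.49% of all 23043 genes. The greater depth of the FC/FC libraries of this mark stood beside these values, and its share in them was not tested.

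The 13 tested members whose FC/FC libraries were all higher in H3K4me1 came from RNAPII (Polr2a, Polr2d, Polr2k), the general factors (Gtf2a2, Gtf2b, Gtf2h4), the TAFs (Taf6l, Taf7, Taf8) and the head and middle of Mediator (Med7, Med8, Med21, Med31). Polr2k had the largest difference, with 1.02, 1.19 and 1.06 RPKM in F/F and 1.45, 1.34 and 1.38 RPKM in FC/FC (0.33, SE 0.0665, adjusted p = 0.0673). Med21 had 1.12, 1.23 and 1.23 against 1.32, 1.46 and 1.64 RPKM (0.28, adjusted p = 0.0998). Taf8, a histone-fold subunit of TFIID, had 0.988, 0.949 and 0.935 against 1.13, 1.14 and 1.08 RPKM (0.20, SE 0.0533, adjusted p = 0.0919). The catalytic subunit gene Polr2a had 1.04, 1.23 and 1.17 against 1.24, 1.28 and 1.30 RPKM (0.14, SE 0.0662, adjusted p = 0.223). In a fit of all 18 libraries together, which shares the spread across marks, Gtf2a2, Med21, Polr2k and Taf8 passed the threshold in H3K4me1, along with 128 genes of the table called higher and 150 lower, and Polr3c passed in H3K4me2.

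In the tail of Mediator, which contacts activators, all 5 tested genes had negative H3K4me1 values (median -0.08), also under the centred and the quantile scaling, where 49.0% of all tested genes were positive. The other 2 tail genes, Med15 and Med23, were under the filter and went the other way: Med15 had 0.816, 0.817 and 0.770 RPKM in F/F and 0.870, 0.874 and 0.828 RPKM in FC/FC, and Med23 had 0.710, 0.825 and 0.709 against 0.841, 0.907 and 0.859 RPKM. Elsewhere in Mediator, 5 of 6 tested head genes and 3 of 5 tested middle genes were positive. Whether the modules differ was not tested. Med24, a tail subunit and one of the few members with an H3K4me1 peak over its TSS, had 1.82, 1.60 and 1.72 RPKM in F/F and 1.56, 1.54 and 1.43 RPKM in FC/FC (-0.17, SE 0.0625, adjusted p = 0.15). Med27 had 1.32, 1.21 and 1.21 against 1.17, 1.17 and 1.12 RPKM (-0.11, adjusted p = 0.268). Med13l and Polr1a completed the 4 members whose FC/FC libraries were all lower.

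The peaks over the TSS were also compared by width. The H3K4me3 peak of a member was 2753 bp wide at the median (2845 bp for all genes with such a peak), reached 1055 bp upstream and 1621 bp downstream of the TSS, and ranged from 1684 bp (Taf4a) to 5760 bp (Polr2l). H3K4me2 peaks were 3461 bp wide (3435 bp for all genes) and ranged from 1120 bp (Gtf2a1l) to 10998 bp (Med22). Of 90 members tested for the log2 width in each of these marks, 0 passed an adjusted p of 0.05. In H3K4me2, 0.216% of all genes were called wider (27) and 0.04% narrower (5). In H3K4me3, 0.0% were called wider and 0.0173% narrower (2). At an unadjusted p under 0.05 there were 2 of the 90 members in H3K4me2, Polr2m and Taf7, against 4.84% of all genes. In H3K4me3 there was 1 of the 90, Polr1e, against 1.95% of all genes. The median log2 change of width was 0.067 in H3K4me2 (0.063 over all genes), with 78 members positive (86.7%, against 79.8%), and -0.038 in H3K4me3 (-0.022 over all genes), with 20 positive (22.2%, against 35.4%). The H3K4me3 width median turned to 0.009 with 51 members positive (0.017 over all genes) without FC/FC replicate 1, and the H3K4me2 width median ran from 0.034 without F/F replicate 1 to 0.145 without FC/FC replicate 1.

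Some widths jumped between libraries. The H3K4me2 peak at Polr3c was 1495, 2024 and 1584 bp wide in F/F and 1409, 5675 and 5677 bp in FC/FC, so that 2 of the FC/FC libraries were far wider and the third was the narrowest of all 6. Polr2l had 6860, 6847 and 7189 bp in F/F and 6475, 11717 and 10976 bp in FC/FC. Taf10 had 3943, 11021 and 10848 bp in F/F and 3645, 11250 and 11327 bp in FC/FC, with the low value in replicate 1 of each genotype. The library apart at Polr3c and Polr2l was FC/FC replicate 1, the shallowest of the 6 H3K4me2 libraries, and the part of depth in these widths was not tested. Without it 3 members passed as wider, Gtf2a1, Polr2l and Polr3c, where 171 of all 12491 genes passed as wider and 21 as narrower. Without F/F replicate 3 Polr2m passed as wider, where 55 of all genes passed as wider and 9 as narrower.

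**Figure D4:**
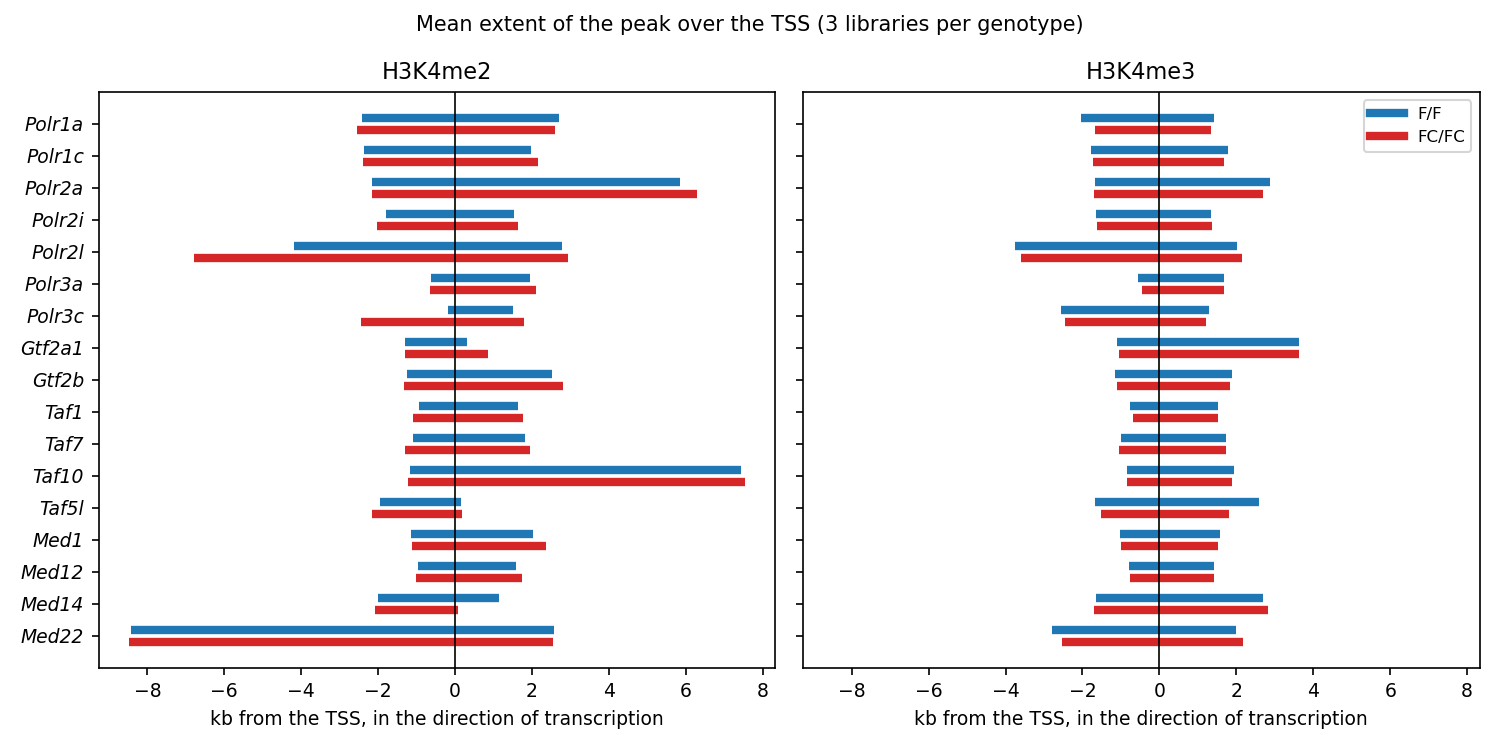
Mean extent of the H3K4me2 and H3K4me3 peak over the TSS of 17 members, in kb from the TSS in the direction of transcription, for F/F (blue) and FC/FC (red), 3 libraries each. H3K4me2 at Polr3c and Polr2l reaches further upstream in FC/FC, where 2 of 3 libraries were wider, and H3K4me3 at Taf5l is shorter in FC/FC, where replicate 1 had 1602 bp and the other 5 libraries 4107 to 4421 bp.

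Paralogue pairs showed how the broadly used subunit and its relative differ within the same libraries. For 9 pairs, the log2 level of the broad gene minus that of the relative was taken in each of the 6 libraries of a mark, and an exact two-sided sign-flip permutation test was run on those 6 differences, 27 tests in all. The smallest p this design allows is 0.03125, which is 0.0402 after adjustment over the 27 tests, and 21 tests reached it. Any 2 genes that keep 1 order in all 6 libraries reach this p. The libraries of a mark were closely alike (Spearman correlations of at least 0.977 across genes), so most genes of clearly unequal level can be thought to do so. The test says only that the order held in every library. The share over other gene pairs was not taken. RPKM is per length, but the lengths within a pair differ and bear on the level as described above.

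The separation was widest for the TAF7 pair. Taf7 (3714 bp) exceeded Taf7l (16375 bp) in H3K4me3 by 5.82 ± 0.174 (SD, n = 6) on the log2 scale, in H3K4me2 by 4.59 ± 0.238 and in H3K4me1 by 1.18 ± 0.201. Taf7 itself had 9.66, 10.4 and 10.6 RPKM of H3K4me3 in F/F and 9.94, 11.6 and 9.24 RPKM in FC/FC, and Taf7l had 0.0687, 0.0872 and 0.0950 against 0.0497, 0.0969 and 0.102 RPKM. Gtf2a1 (35226 bp) exceeded Gtf2a1l (46491 bp) in H3K4me3 by 3.40 ± 0.148, in H3K4me2 by 2.65 ± 0.0960 and in H3K4me1 by 1.39 ± 0.0464 (SD, n = 6). Taf9 exceeded Taf9b in H3K4me3 by 3.03 ± 0.0979. Polr3gl, which encodes the RPC7 isoform of most adult tissues, exceeded Polr3g, the isoform known from stem cells, by 0.87 ± 0.0874 in H3K4me3 RPKM. The H3K4me3 peak over the TSS was in the opposite order, 1743 to 1874 bp wide at Polr3gl and 2791 to 3177 bp at Polr3g. The levels of Taf7l and Gtf2a1l were low in both genotypes.

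In 2 pairs the order turned between marks. Med12 (24844 bp) exceeded Med12l (311435 bp) by 2.10 ± 0.0639 in H3K4me3 but was lower in H3K4me1, by -0.37 ± 0.0719 (SD, n = 6). Med13 exceeded Med13l by 0.68 ± 0.0583 in H3K4me3 and was lower in H3K4me1, by -0.95 ± 0.168, and the H3K4me2 difference of -0.16 ± 0.185 did not pass. Among the other pairs, Taf5 and its SAGA relative Taf5l differed past the threshold in H3K4me1, by -1.77 ± 0.116, and not in H3K4me2 (-0.06 ± 0.0993) or H3K4me3 (0.02 ± 0.0857). Taf6 and its SAGA relative Taf6l had an H3K4me3 difference of -0.02 ± 0.164, within its spread, whereas Taf6l had more H3K4me2 (-0.86 ± 0.0827) and H3K4me1 (-0.36 ± 0.133). Taf4a and Taf4b, a subunit known from oocytes, differed in H3K4me1 (1.06 ± 0.196) and not past the threshold in H3K4me2 (0.10 ± 0.158) or H3K4me3 (0.09 ± 0.213).

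**Figure D5:**
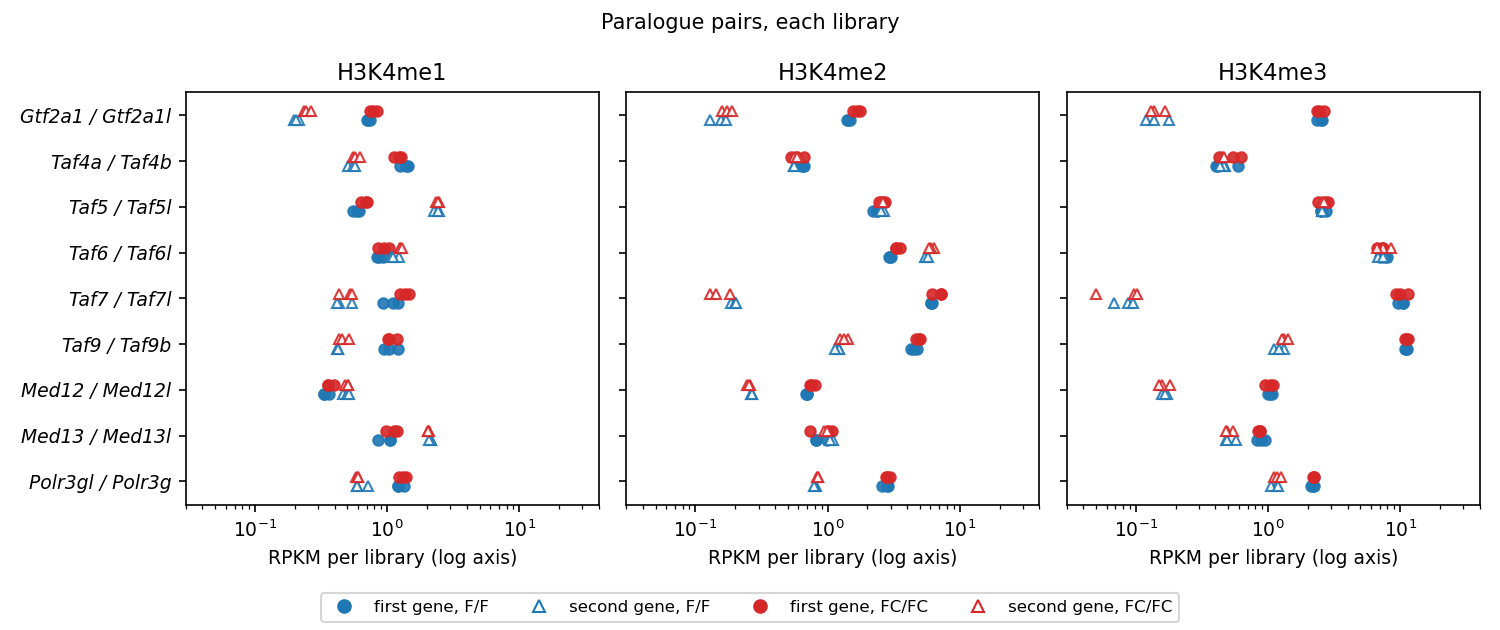
RPKM (log axis) of both genes of 9 paralogue pairs in each library, with filled circles for the broadly used gene, open triangles for its relative, blue for F/F and red for FC/FC. In H3K4me3 Taf7l and Gtf2a1l lie left of Taf7 and Gtf2a1 in every library, by 5.82 and 3.40 on the log2 scale on average.

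Peak regions seen in 1 genotype alone were few among members, and those of H3K4me2 were all in F/F. A region was counted as lost where the authors called a peak in all 3 F/F libraries but no peak in any FC/FC library, as gained in the opposite case, and was given to a member within 5 kb of the transcript. In H3K4me2, 6 members had a lost region (6.38%, against 3.81% of all genes) and 0 a gained one (0.265%). In H3K4me1, 1 member, Med26, had lost regions (1.06%, against 2.55%) and 7 a gained one (7.45%, against 1.85%). In H3K4me3, no member had either, against 0.352% of all genes for lost and 0.0477% for gained regions. The FC/FC libraries also had fewer H3K4me2 peaks in total (56112 to 58585) than the F/F libraries (62100 to 70437), and the share of this in the lost regions was not tested. Of the 6 members, only Polr1e had a lost H3K4me2 region also when the same number of top-scoring peaks was taken from each library or when peaks scored at least 100, and the latter setting added 2 others, Gtf2a2 and Gtf2f2.

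The 7 lost H3K4me2 regions lay inside Polr1e, Taf3, Med13l (2 regions), Taf5l, Taf4a and Med27, 10374 to 149020 bp downstream of the TSS. Each had an H3K4me1 peak in all 6 libraries and an H3K4me3 peak in none. Of all 1543 lost H3K4me2 regions, 3 (0.194%) had an H3K4me3 peak, so its absence was general to lost regions. The share of all lost regions with an H3K4me1 peak was not taken. The region in Polr1e (mm10, chr4:45033718-45035008, 1291 bp) overlapped exons of Polr1e and of its neighbour Fbxo10, and its peak scores in F/F, the authors' negative log10 p-value multiplied by 10, were 202, 145 and 150. The region in Taf5l (chr8:124007438-124008805) overlapped an exon, with scores of 70.7, 68.4 and 141. The region in Taf3 (chr2:9941484-9942726, 106504 bp from the TSS) was intronic, with scores of 91.2, 72.9 and 174. The regions in Med13l (chr5:118675174-118676236 and chr5:118709126-118710353), in Taf4a (chr2:179965574-179966971) and in Med27 (chr2:29360653-29361639) were intronic as well. The lowest score in the H3K4me2 files is 50 and the highest 3233.

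The centres of the lost regions in Taf3 and Med13l are printed because, unlike the promoters above, they are nearly free of CpG. Each run is 300 bases of the plus strand of GRCm38.p6, with CpG in capitals.
Taf3, chr2:9941956-9942255: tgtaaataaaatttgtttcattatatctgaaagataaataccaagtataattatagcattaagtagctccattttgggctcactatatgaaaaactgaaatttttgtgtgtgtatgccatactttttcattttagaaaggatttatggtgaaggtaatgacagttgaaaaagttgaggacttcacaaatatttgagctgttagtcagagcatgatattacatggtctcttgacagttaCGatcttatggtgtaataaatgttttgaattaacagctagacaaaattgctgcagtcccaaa
Med13l, chr5:118675556-118675855: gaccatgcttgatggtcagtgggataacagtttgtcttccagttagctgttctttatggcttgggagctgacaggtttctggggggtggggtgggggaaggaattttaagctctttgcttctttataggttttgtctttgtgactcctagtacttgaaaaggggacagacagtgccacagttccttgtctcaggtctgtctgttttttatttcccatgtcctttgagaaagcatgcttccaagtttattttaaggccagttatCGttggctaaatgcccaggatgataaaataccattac
Each holds 1 CpG. The median observed over expected CpG of the 7 lost member regions was 0.136, against 0.159 over all 1543 lost H3K4me2 regions, 0.203 over 27258 regions kept in all 6 libraries without an H3K4me3 peak, and 0.444 over 18473 kept regions with one. The AP-1 motif TGANTCA, read on both strands (it is its own reverse complement), was in 0 of the 7 windows and in 26.2% of all lost, 24.1% of kept H3K4me3-free and 8.46% of kept H3K4me3-bearing windows of the same length.

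The gained H3K4me1 regions belonged to Polr3k, Polr1b, Med31, Taf1, Taf4b, Med14 and Med23. Of these 7 regions, 6 (not that of Med23) had H3K4me2 and H3K4me3 peaks in all libraries. The share over all 491 gained H3K4me1 regions was not taken. An H3K4me3 peak covered the TSS in all 6 libraries for 95.7% of members, against 50.1% of all genes. Which members had a gained region depended on the peak threshold. With a score of at least 100 there were again 7 (against 2.40% of all genes), but 0 of those named here. With equal numbers of peaks from each library there were 7 (against 2.95% of all genes), and 3 were shared, Polr1b, Polr3k and Taf4b. The region at Polr3k (mm10, chr2:181862974-181864066) was centred 840 bp upstream of the TSS, with scores of 133, 100.9 and 78.3 in FC/FC. The region at Med31 (chr11:72213158-72214538) lay inside the gene, 1744 bp from the TSS, with scores of 80.9, 59.1 and 162, and that in Taf1, the largest TFIID subunit, lay 1202 bp inside (chrX:101533514-101534360, scores 70.7, 56.4 and 81.3). The regions at Polr1b and Med14 lay beyond the end of the transcript, 188 bp from the gene Chchd5 and inside 1810030O07Rik. At Med26, a Mediator subunit that recruits elongation factors, the lost H3K4me1 regions were 5356 bp inside the gene (chr8:72542324-72543585) and 4533 bp upstream of it (chr8:72552335-72553351), with mean scores of 58.6 and 57.0.

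The 37 partner genes of the same machinery that the name rule leaves out, such as Tbp, Cdk8, Cdk7, Ercc2 and the TFIIIC and SNAPc subunits, had an H3K4me3 peak over the TSS in all 6 libraries at 37 of 37. Of 18 tested in H3K4me1, 29 in H3K4me2 and 33 in H3K4me3, 0 passed a limma adjusted p of 0.05 in any mark. At an unadjusted p under 0.05 there were 5, 10 and 0. The 5 were all higher in FC/FC, and the 10 included a lower one, Cdk19 (log2 fold change -0.12). Of all tested genes, 857 were higher and 1287 lower at that p in H3K4me1 (of 8567). In H3K4me2 it was 2139 and 761 (of 9986), and in H3K4me3 156 and 182 (of 9073). The median log2 fold changes of the partners were 0.080, 0.094 and 0.028, against -0.003, 0.075 and 0.014 over all tested genes. Of the partners, 13, 28 and 20 were positive, against 49.0%, 74.98% and 57.8% of all tested genes. Tbp, the DNA-binding core of TFIID, had 1.43 ± 0.0407 RPKM of H3K4me1 in F/F and 1.66 ± 0.0554 RPKM in FC/FC (SD, n = 3, log2 fold change 0.20, limma adjusted p = 0.0894). Cdk7, the kinase of TFIIH that phosphorylates RNAPII, had 1.17 ± 0.0392 RPKM of H3K4me2 in F/F and 1.28 ± 0.0353 RPKM in FC/FC (0.13, SE 0.0463, limma adjusted p = 0.139).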

How the data were processed

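Per the labels and the study's methods, the authors aligned reads with BWA 0.7.10 to mm10 after CASAVA 1.4 and extended them to 200 bp. The deposited tables hold RPKM per RefSeq transcript extended by 500 bp at each end, and the deposited peak files hold MACS 1.4.2 peaks (p of 1e-05) called by the authors per library against histone H3, with a score that is the negative log10 p multiplied by 10. Of 52 samples, 34 have no file used here. RPKM steps gave whole reads for 100% of values (within 0.01), from which depth was taken. Log2(RPKM + 0.1) of genes with above 1 RPKM in at least 3 libraries was fitted per mark with limma 3.58.1 (trend, Benjamini-Hochberg) in R 4.3.3, and scripts were tested on simulated data. The labels do not say that libraries came from separate cultures. The study's supplement names independent experiments, and p-values cover the spread between these libraries. A TSS peak overlapped the start by at least 1 bp. The tables' flags for active genes were not used for tests. Named genes were members past the threshold (the 10 largest), those with the smallest p per family and mark, the highest and lowest H3K4me3 per family, fixed core subunits, paralogue pairs, the most damaged genes, members with lost or gained regions or without an H3K4me3 TSS peak, and Kmt2d. Others (Polr2f, Polr2m, Med21, Med25, Med26, Taf13, those listed by overlap or without H3K4me2 FC/FC replicate 1, and partners) were named after their values were seen. Members and lists were chosen with earlier results of these data known.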

Additional observations from a re-analysis of the deposited data

How the results depend on the processing

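No paired analysis was possible because the labels give no replicate numbers: those used here follow accession order, and although the library numbers run in blocks with a set of each genotype, no label says that a block shares a culture or day. Counts of members past the threshold changed from 0 to 1 (limma-voom on recovered reads) and 4 (a fit of all 18 libraries) in H3K4me1 and to 1 (all 18 libraries) in H3K4me2, and leaving out 1 library gave 0 to 25 in H3K4me2 levels and 0 to 3 in H3K4me2 widths. The H3K4me2 median of 0.119 became 0.064 after centring, 0.068 after quantile normalization and 0.091 with a pseudocount of 1, and the H3K4me1 median of 0.083 ran from 0.050 to 0.097 over left-out libraries. Members with an H3K4me1 TSS peak numbered 1 at a score of at least 100 (1239 of all genes), 24 within 500 bp (5675 of all genes) and 2 to 4 without 1 library. Members with a lost H3K4me1 region numbered 0 at that score (against 1.81% of all genes) and 2 with equal peak numbers (Med16 and Taf4b, against 2.09%). Without 1 library they numbered 2 to 7 (against 3.98% to 7.56%). Those with a gained region numbered 3 within the transcript (against 1.28%) and 7 to 13 without 1 library (against 2.93% to 6.20%). Of the 7 gained members, 0 were shared at that score and 3 with equal peak numbers. Lost H3K4me2 regions touched 3 members at that score (1 shared, against 3.49% of all genes) and 1 with equal peak numbers (against 1.29%). Gained ones touched 1 under either (Taf4b, against 0.104% and 1.27%) and 0 to 1 without 1 library (against 0.352% to 0.846%). Lost H3K4me3 regions touched 0 to 1 (Med24, without F/F replicate 2, against 0.846%). The cause was not tested. Over all genes, the calls (higher and lower) were 119 and 589 with voom, 128 and 150 with all 18 libraries, 16 and 71 after centring and 17 and 69 after quantile normalization in H3K4me1 (0 and 0 as reported), 107 and 262, 130 and 307, 28 and 406, and 28 and 319 in the same order in H3K4me2 (59 and 155), where they were 69 and 384 without a filter and 16 and 68 with RPKM above 1 in all 6 libraries, and 7 and 23 with all 18 libraries in H3K4me3 (0 and 0). In the main fits 0 members were called in level or width, so no such call could change direction. The paralogue differences that passed kept their direction. Among medians with no call, that of H3K4me3 levels ran from -0.021 to 0.004, that of H3K4me3 widths from -0.081 to 0.009 and that of H3K4me2 widths from 0.034 to 0.145 over left-out libraries. In all, 208 alternative values of the comparisons stayed within their limits and 32 did not. Single named members changed sign in 15 of 519 (H3K4me1), 15 of 684 (H3K4me2) and 54 of 751 (H3K4me3) alternatives. The RPKM filter left 41 members untested in H3K4me1, 22 in H3K4me2 and 13 in H3K4me3.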
